A study of Mus musculus with 4 samples.

Results

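Genes that mark or help set up the formative and primed states of the epiblast were followed in mouse embryonic stem cells. They are Fgf5, Otx2, Pou3f1, Foxd3, Lef1 and Car14, 6 genes found by symbol among the 1593 rows of the authors' deposited table of genes that differed between the groups. The cells of all 4 libraries had received the MEK inhibitor PD0325901 at 1 µM in serum for 24 h. All 6 genes were lower in both libraries with CID755673 added than in both libraries without it. This also held for 61.5% of all genes in the table, which was selected on this contrast. The mean level with CID755673 was 15.7% of the level without it for Fgf5, 24.7% for Pou3f1, 40.8% for Otx2 and 45.7% for Foxd3. These 4 passed the test over all genes, as did 31.1% of all genes in the table, 19.8% with a lower level, whereas Lef1 at 42.2% and Car14 at 48.1% did not. Without a trend in the spread 0 of the 6 passed, and 1 of all 1593 genes in the table did. The calls of the 4 were also lost with any 1 of the 4 libraries left out, as were most calls over the whole table.

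The cells were of the line 46C, in which green fluorescent protein reports on the neural gene Sox1. The PD group received PD0325901, which blocks MEK, the kinase that activates ERK, at 1 µM in serum for 24 h. The PC group received the same medium and inhibitor together with CID755673, known as an inhibitor of protein kinase D, at a dose the sources used here do not give. MEK was thus inhibited in both groups, and cells without PD0325901 were not part of the comparison. Each group had 2 libraries of total RNA from this single line, and the labels do not say that cultures were separate. The p-values therefore measure the spread between these samples alone, which may be technical.

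Naive embryonic stem cells resemble the epiblast before implantation. On leaving that state they enter a formative stage, in which they become able to respond to signals for germ layers and germ cells, and then a primed stage like the epiblast after implantation. Signalling from FGF through MEK and ERK promotes this transition. OTX2 and POU3F1 are transcription factors that rise early in it, FOXD3 is a transcription factor needed by epiblast cells, FGF5 is a secreted ligand used as the classical marker of the post-implantation epiblast, and LEF1 binds DNA as a partner of beta-catenin in Wnt signalling. CAR14 is a membrane-bound carbonic anhydrase, which interconverts carbon dioxide and bicarbonate.

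The table was selected on the contrast it reports. Rows had log2 fold changes of 1 or more in size and p-values up to 0.0498 in the authors' test of 31432 genes, so a lower or higher value in PC was a condition for being seen at all. The per-library values are whole reads divided by 1 size factor per library, here called normalized reads. Recovered reads on listed genes ranged from 433684 to 683777 per library, and the full depth of the libraries is unknown. Of 17 naive pluripotency genes 0 were listed, so Nanog, Klf4 and Esrrb, and also Pou5f1 and Sox2, are not analysed here. For the stem cell label only Utf1, Lin28a and Dnmt3l were at hand, the 3 listed from a list of 13 general pluripotency genes. Their levels summed to between 23343.3 and 24382.3 normalized reads in PD and between 7975.1 and 8211.1 in PC. All 3 passed the test with a lower level, as did 19.8% of all genes in the table. Such sums do not settle what the cells were.

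Otx2 (ENSMUSG00000021848, chromosome 14), the homeobox factor of the epiblast and anterior brain, had the most reads of the 6, and per kilobase of exon as well. It stood at 5913.2 and 6114.8 normalized reads in PD replicates 1 and 2, and at 2565.0 and 2342.3 in PC replicates 1 and 2. The libraries of a group lay close together and the groups were far apart. Otx2 fell by 1.29 on the log2(value + 1) scale (SE 0.09, limma, Benjamini-Hochberg adjusted p = 0.013), a 2.45-fold lower mean. With 3096 and 1969 reads in the PC libraries it was also the best counted of the 6 after treatment. By its mean level in PD it ranked 23 among the 1593 listed genes, and 2 among the 120 that the authors' deposited table annotates with sequence-specific DNA-binding transcription factor activity.

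Pou3f1 (ENSMUSG00000090125, chromosome 4), which encodes the POU-domain factor also called OCT6, stood at 876.6 and 860.6 normalized reads in PD and at 195.5 and 234.4 in PC. The PD libraries differed by less than their counting error. Each value lies within the other's exact 95% Poisson interval, 820.4 to 935.7 for replicate 1 and 806.4 to 917.4 for replicate 2. Pou3f1 fell by 2.02 (SE 0.13, limma, Benjamini-Hochberg adjusted p = 0.012), a 4.04-fold lower mean. The highest PC library held 27.2% of the lowest PD library.

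Foxd3 (ENSMUSG00000067261, chromosome 4), the forkhead factor that acts in the epiblast and later in the neural crest, stood at 1100.6 and 1230.8 normalized reads in PD and at 526.9 and 538.9 in the PC libraries. Its level in PC was the most even of the 6, with a coefficient of variation of 1.6% against 7.9% in PD. Each value in PC lies within the Poisson interval of the other, 486.8 to 569.5 for replicate 1 and 490.4 to 590.9 for replicate 2. This evenness is thus finer than counting error can resolve. Foxd3 fell by 1.13 (SE 0.11, limma, Benjamini-Hochberg adjusted p = 0.015), a 2.19-fold lower mean, which is near the fold limit of the table.

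Fgf5 (ENSMUSG00000029337, chromosome 5), the ligand, had the lowest remaining share. It stood at 387.9 and 401.4 normalized reads in PD and at 75.4 and 48.8 in the PC libraries. The PD libraries were nearly equal, with a coefficient of variation of 2.4%, and the PC libraries were not, with 30.3%. The PC values rest on 91 and 41 reads. Their Poisson intervals of 60.7 to 92.6 and 35.0 to 66.2 overlap, but each value lies outside the interval of the other. Fgf5 fell by 2.68 (SE 0.24, limma, Benjamini-Hochberg adjusted p = 0.015), a 6.36-fold lower mean, and ranked 148 among the 980 listed genes with lower values when ordered by the size of the fall.

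Lef1 (ENSMUSG00000027985, chromosome 3) stood at 277.3 and 348.3 normalized reads in PD and at 106.9 and 157.0 in the PC libraries. The groups did not overlap, but the libraries of each group differed by 0.33 and 0.55 on the log2 scale in PD and PC. The log2 change was -1.26 (SE 0.24), with a 95% interval from -1.87 to -0.64, and it missed the threshold (limma, Benjamini-Hochberg adjusted p = 0.13). With voom on the recovered reads the adjusted p was 0.044.

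Car14 (ENSMUSG00000038526, chromosome 3) stood at 157.1 and 79.7 normalized reads in PD and at 41.4 and 72.6 in the PC libraries. The lowest PD library and the highest PC library were thus almost level. The PD libraries differed by 0.97 on the log2 scale, close to the change itself, which was -1.02 (SE 0.44) with a 95% interval from -2.14 to 0.11. The Poisson intervals of the PD libraries, 133.8 to 183.2 and 63.9 to 98.4, do not overlap, so this gap exceeds counting error. Car14 missed the threshold (limma, Benjamini-Hochberg adjusted p = 1), and the size of its change depended on each library. Leaving out PD replicate 1 gave -0.53 and leaving out PD replicate 2 gave -1.50, while leaving out PC replicate 1 gave -0.62 and leaving out PC replicate 2 gave -1.41.

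**Figure D1:**
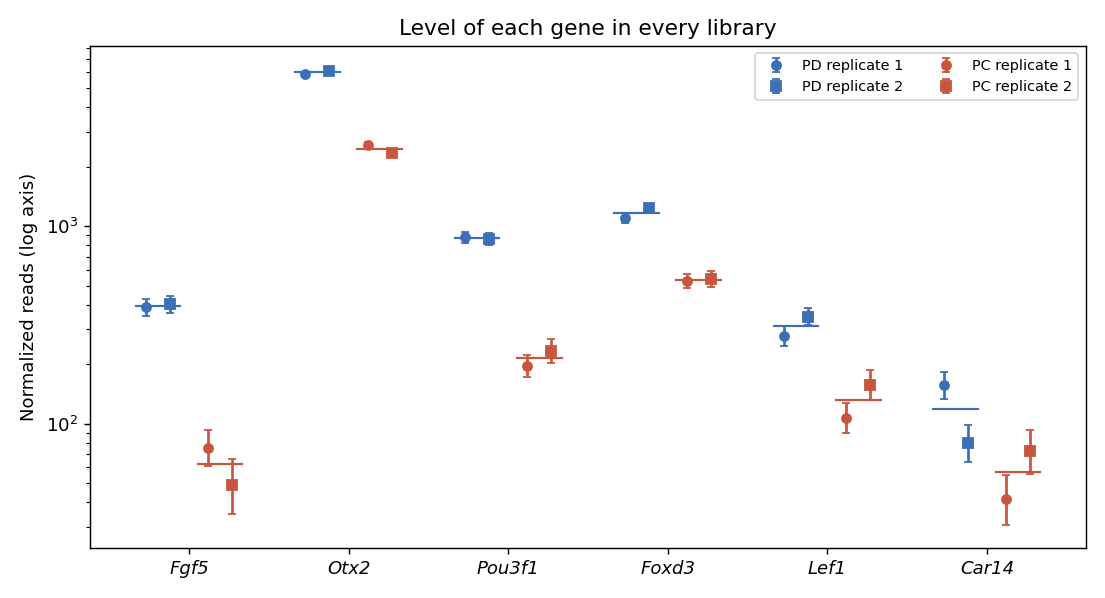
Normalized reads of the 6 genes on a log axis, with PD libraries in blue and PC libraries in red. Points are single libraries, bars their exact 95% Poisson intervals (counting error only) and lines the group means. Fgf5, Otx2, Pou3f1 and Foxd3 show wide gaps between the groups, while Car14 at 79.7 in PD replicate 2 and 72.6 in PC replicate 2 nearly meets.

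Of the 6 genes 4 were called, all of them lower in PC. Over all listed genes 31.1% were called in either direction and 19.8% were called lower. By the authors' deposited table, a false discovery rate under 0.05 was listed for 5 of the 6, from 4.4e-73 for Otx2 to 1.9e-05 for Lef1, and Car14 had 0.089, while 70.2% of all listed genes were under 0.05 and 43.9% were so with a lower value. That the groups did not overlap for any of the 6 is no result about them, since this held for 99.7% of listed genes. The median log2 change was -1.28 for the 6 genes, -1.17 for all listed genes and -1.53 for the 980 listed genes with lower values. An exact permutation test of 2 against 2 libraries cannot give a p below 0.333 for a single gene.

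The calls depended on how the spread was modelled and on each library. In limma without a trend of the spread with level, 0 of the 6 passed, with adjusted p from 0.14 for Fgf5 and Pou3f1 upward, although 5 had an unadjusted p under 0.05. Over all listed genes 495 were called with the trend and 1 without it. Most of those 495 were also lost with any 1 library left out, so such losses are not particular to the 6. With any 1 of the 4 libraries left out 0 of the 6 passed either, and 4 to 5 had an unadjusted p under 0.05. The same held for the 23 called among the 46 genes of the naming rule, which leaves out the pluripotency and cell type markers: 0 passed with any 1 library left out and 35 to 42 of the 46 had an unadjusted p under 0.05. Among the called genes the changes themselves moved little for Pou3f1, from -2.15 to -1.89, Otx2, from -1.36 to -1.23, and Foxd3, from -1.21 to -1.05. The change of Fgf5 moved more, from -2.99 to -2.37, as did that of Lef1, which was not called, from -1.53 to -0.98.

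**Figure D2:**
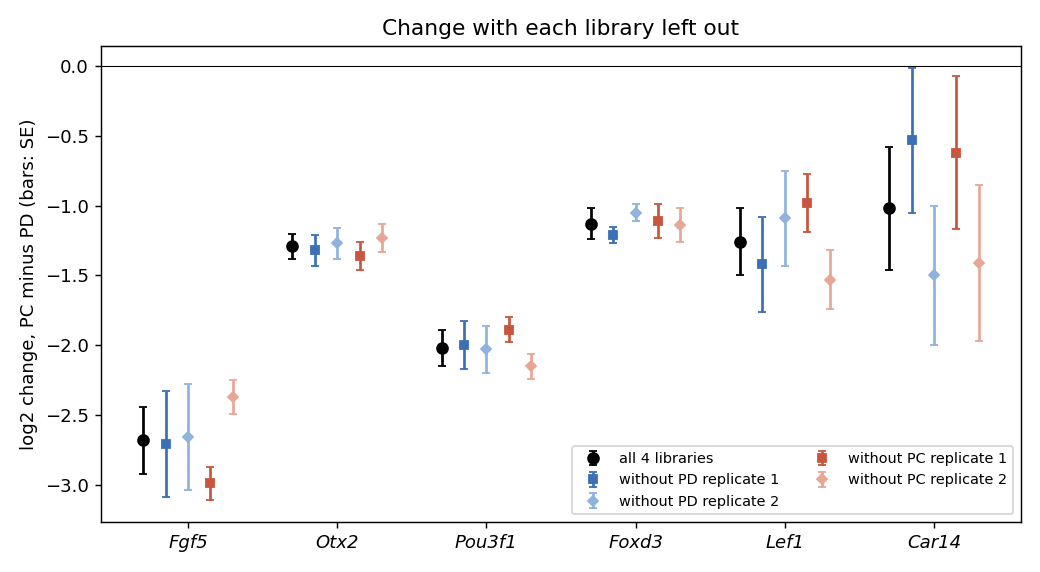
Log2 change, PC minus PD, of each gene with all 4 libraries (black) and with each library left out (colours); bars are standard errors from limma. Otx2 stays between -1.36 and -1.23, whereas Car14 moves between -1.50 and -0.53.

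The 6 genes fell into different sizes of change. When each PC library was divided by each PD library, the 4 ratios lay between 12.2% and 19.4% for Fgf5 and between 22.3% and 27.2% for Pou3f1. They lay between 38.3% and 43.4% for Otx2, between 42.8% and 49.0% for Foxd3, between 30.7% and 56.6% for Lef1 and between 26.4% and 91.0% for Car14. The ranges did not overlap in 8 of the 15 pairs of genes. Fgf5 lay below each of the other five, and Pou3f1 lay below Otx2, Foxd3 and Lef1. Otx2, Foxd3, Lef1 and Car14 could not be ordered by this measure. The differences between genes were not tested.

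**Figure D3:**
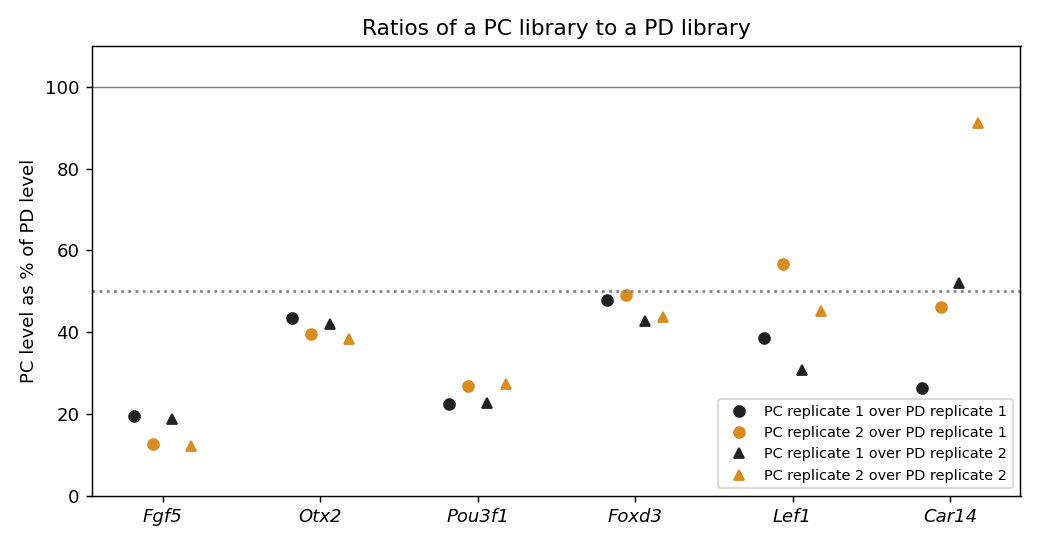
Level of each gene in a PC library as a percentage of its level in a PD library, for the 4 pairings of libraries; the dotted line marks 50%. The ratios of Fgf5, from 12.2% to 19.4%, lie below those of every other gene shown, and those of Car14 spread from 26.4% to 91.0%.

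Divided by the length of the merged exons in GENCODE M21, levels can be set side by side between genes. In PD the mean was 1424.8 normalized reads per kilobase for Otx2, 501.6 for Foxd3, 225.7 for Pou3f1 and 157.8 for Fgf5. Car14 followed with 61.8 and 31.4 in the 2 libraries and Lef1 with 31.6 and 39.6, and the ranges of Car14 and Lef1 overlapped. In PC the order of the most abundant members was kept, at 581.3 for Otx2, 229.3 for Foxd3 and 55.8 for Pou3f1. Fgf5 came down to 30.1 and 19.5, and so overlapped Car14 at 16.3 and 28.5, while Lef1 was at 12.2 and 17.9.

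The balance between the epiblast genes differed between the groups in some of the 15 pairs of genes, and these ratios were not tested. Per length, Fgf5 stood at 0.111 of the level of Otx2 in each PD library and at 0.0496 and 0.0351 in the PC libraries. Otx2 stood at 6.15 and 6.48 times the level of Pou3f1 in the PD libraries and at 11.96 and 9.11 times in the PC libraries. Otx2 stood at 2.96 and 2.74 times the level of Foxd3 in PD and at 2.68 and 2.39 times in PC. The nearest of these values, 2.74 and 2.68, were almost level, and these genes could not be ordered above. Other pairs overlapped between the groups, such as Otx2 to Lef1, at 44.39 and 36.56 in PD and at 49.97 and 31.06 in PC. Exons of the annotation may differ from those the authors counted on, which would scale a ratio alike in all libraries.

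Upstream sequence is shown for Fgf5, Foxd3, Otx2 and Car14, the genes with a window clear of exons at their first start, to let their promoters be compared. RefSeq windows of GRCm38.p6, on the strand of the gene, were found for 5 of the 6, all but Pou3f1. Windows hold the 250 bases before the start, and that of Car14 was cut by its last 6 bases, which are exonic in GENCODE M21. Those of Lef1 and further windows of Otx2 are not printed, as most overlap annotated exons. Capitals mark matches to any of 6 motifs, searched on both strands with no overlap between motifs found: OTX core TAATCC, octamer ATGCNAAT, TCF/LEF CTTTGAA, forkhead TGTTTAC, ETS CCGGAAG and TATA box TATAAA. Fgf5 is at chr5:98253934-98254183, Foxd3 at chr4:99656049-99656298, both on the plus strand, Otx2 at chr14:48667645-48667894 and Car14 at chr3:95904692-95904935, both on the minus strand.
Fgf5: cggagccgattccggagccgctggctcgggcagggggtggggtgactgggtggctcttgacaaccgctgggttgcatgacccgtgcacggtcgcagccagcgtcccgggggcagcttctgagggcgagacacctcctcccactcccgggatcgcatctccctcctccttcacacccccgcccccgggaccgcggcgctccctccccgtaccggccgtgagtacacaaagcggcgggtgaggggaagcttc
Foxd3: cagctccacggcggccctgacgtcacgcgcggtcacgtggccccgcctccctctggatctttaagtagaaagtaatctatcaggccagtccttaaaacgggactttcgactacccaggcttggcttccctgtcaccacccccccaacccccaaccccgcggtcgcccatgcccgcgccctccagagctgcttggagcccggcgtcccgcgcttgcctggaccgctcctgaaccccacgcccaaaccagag
Otx2: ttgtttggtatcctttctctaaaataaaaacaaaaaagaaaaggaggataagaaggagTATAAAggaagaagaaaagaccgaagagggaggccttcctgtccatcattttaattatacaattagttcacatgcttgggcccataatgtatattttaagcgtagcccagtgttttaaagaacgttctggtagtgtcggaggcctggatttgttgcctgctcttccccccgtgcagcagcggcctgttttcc
Car14: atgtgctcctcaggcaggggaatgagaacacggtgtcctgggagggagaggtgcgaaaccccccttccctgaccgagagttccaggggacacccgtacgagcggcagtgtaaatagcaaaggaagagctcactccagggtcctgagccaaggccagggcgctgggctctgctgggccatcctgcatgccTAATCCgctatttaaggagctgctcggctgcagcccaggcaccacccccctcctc
The window of Car14 holds the OTX core TAATCC beginning 61 bases before the RefSeq start, the cut bases included, a match that 6.25% of all 32536 windows of 250 bases hold. That of Otx2 holds TATAAA beginning 192 bases before the start, which 12.3% of windows hold. Of the windows not printed, 1 of Otx2 holds GGATTA, the OTX core on the other strand, and 1 of Lef1 holds TTTATA, the TATA letters on the other strand. The other 4 motifs had no match in the 11 windows of these genes, and 4.47% of all windows hold the TCF/LEF letters, 2.89% the octamer, 3.17% the forkhead and 6.95% the ETS letters. The full windows of Fgf5, Foxd3 and Car14 are rich in G and C, at 70.8%, 65.6% and 62.0%, while the printed window of Otx2 has 42.0%. The median is 52.4% over all windows and 53.6% over the 11 windows of these genes.

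In a wider list of 26 genes used to mark the formative and primed stages, 9 were listed, namely the 6 genes and Dnmt3b, Fgf15 and Grhl2. Of these 7 fell, 4 of them already counted above, where 19.8% of all listed genes were called lower, and 0 passed with any 1 library left out. Fgf15, a ligand of the endocrine FGF group, stood at 2311.7 and 2266.5 normalized reads in PD and at 555.1 and 580.5 in PC, a log2 change of -2.01 (SE 0.09, limma, Benjamini-Hochberg adjusted p = 0.011). Grhl2, a grainyhead-like factor of epithelia, stood at 1699.9 and 1763.3 in PD and at 664.4 and 632.9 in PC, a log2 change of -1.42 (SE 0.09). Dnmt3b, a de novo DNA methyltransferase, fell by 1.15 on the same scale. The median log2 change of the 9, all lower, was -1.29, against -1.17 over all listed genes and -1.53 over the listed genes with lower values.

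Of 22 FGF ligands 6 were listed, all with lower values, as were 61.5% of all listed genes. Fgf5, Fgf15 and Fgf17 fell, where 19.8% of all listed genes were called lower. Fgf17, of the FGF8 subfamily, stood at 610.9 and 530.6 normalized reads in PD and at 211.3 and 223.6 in PC. Fgf1, Fgf18 and Fgf23 had log2 changes of -1.74, -1.06 and -1.36 and missed the threshold (limma, Benjamini-Hochberg adjusted p = 0.07, 0.2 and 0.12). Of 11 receptors, co-receptors, adaptors and carriers 1 was listed, the secreted carrier Fgfbp1, which fell by 2.22 (SE 0.16). The receptors Fgfr1 to Fgfr4 are therefore not analysed here.

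Targets and feedback regulators of ERK, the pathway FGF acts through, were listed for 7 of 22 genes. Myc, Spry2 and Dusp6 fell, with log2 changes of -1.53, -1.11 and -1.08, where 19.8% of all listed genes were called lower and 11.2% higher. With a pseudocount of 0.1 Dusp6 no longer passed (limma, Benjamini-Hochberg adjusted p = 0.051). Dusp9, another MAP kinase phosphatase, rose, from 13548.5 and 12741.0 normalized reads in PD to 29498.0 and 31513.8 in PC (log2 change 1.21, SE 0.09, limma, Benjamini-Hochberg adjusted p = 0.013). Spry4, Dusp4 and Fosl1 had changes of -2.60, -1.10 and -1.68 and did not pass.

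Of 36 genes of the Wnt pathway 5 were listed, and Lef1 was the one DNA-binding partner of beta-catenin among them. Cdx1, a homeobox target of Wnt and retinoic acid, rose from 78.5 and 83.4 normalized reads in PD to 377.8 and 455.6 in PC. Dkk1, a secreted Wnt inhibitor, and the ligand Wnt5a had lower values, with log2 changes of -1.84 (SE 0.66) and -1.56 (SE 0.43), and the ligand Wnt11 had a higher one, 1.38 (SE 0.24). None of these 3 passed, and the listed genes of the pathway did not share a direction.

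**Figure D4:**
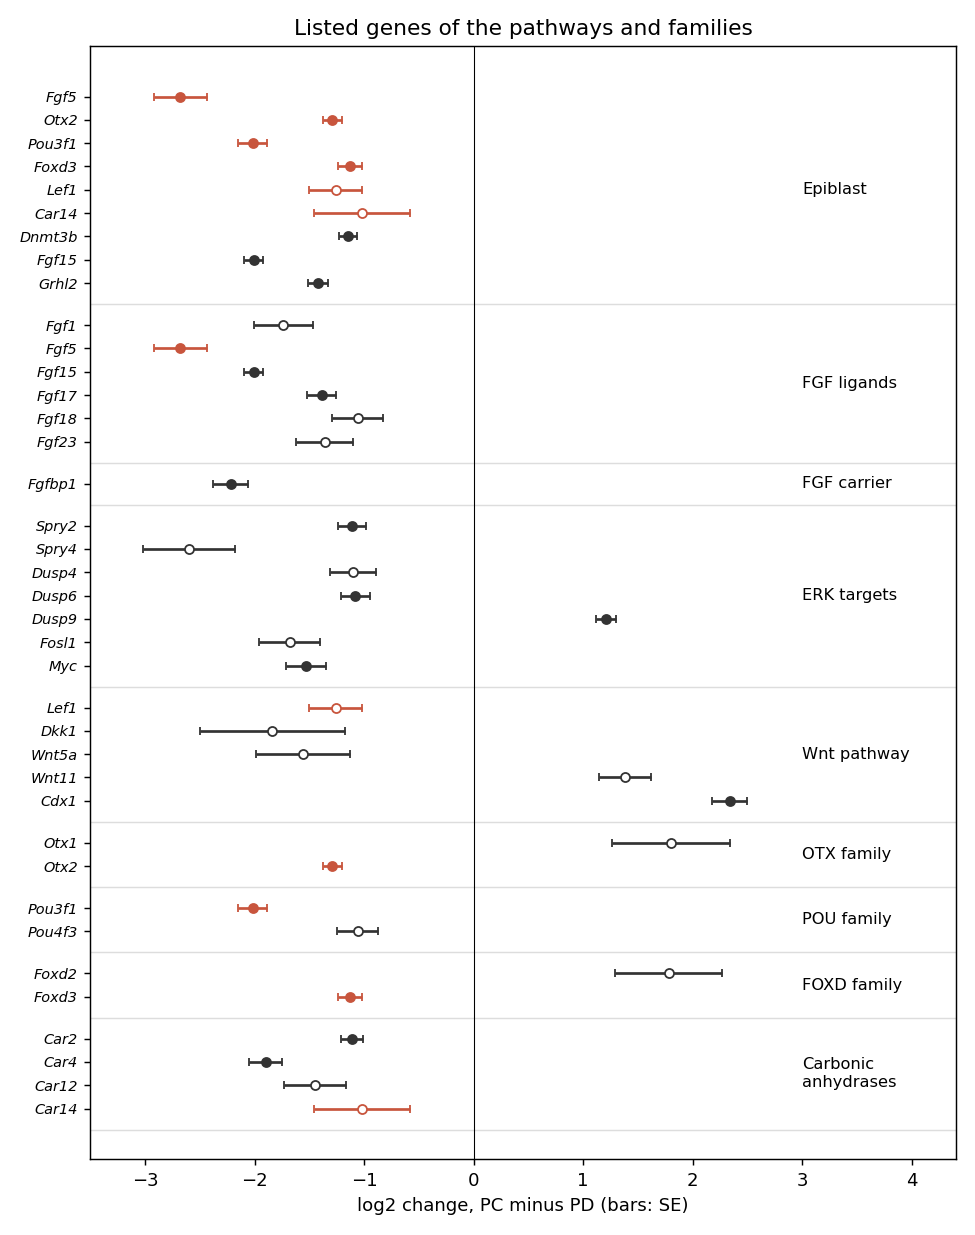
Log2 change, PC minus PD, of the listed genes of each pathway or family, with standard errors from limma; red marks the 6 genes, filled points had an adjusted p under 0.05. All 6 FGF ligands lie left of 0, while the listed Wnt genes, with Lef1 at -1.26 and Cdx1 at 2.34, lie on both sides.

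Within gene families the close relatives of Otx2 and Foxd3 went the other way in value. Otx1 stood at 39.8 and 14.7 normalized reads in PD and at 71.2 and 105.9 in PC, a log2 change of 1.80 (SE 0.54), and missed the threshold (limma, Benjamini-Hochberg adjusted p = 0.47). Foxd2 stood at 11.6 and 18.3 in PD and at 74.6 and 36.9 in PC, a log2 change of 1.78 (SE 0.49), and did not pass either (limma, Benjamini-Hochberg adjusted p = 0.38). Per kilobase, Otx1 at a mean of 16.3 in PC remained far below Otx2 at 581.3. Of the POU family, the neuronal gene Pou4f3 had a log2 change of -1.06 and did not pass.

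Of 16 carbonic anhydrase genes 4 were listed, all with lower values in PC, as were 61.5% of all listed genes, of which 19.8% were called lower. Car2, the abundant cytosolic enzyme, fell from 5782.3 and 6503.4 normalized reads to 2770.4 and 2894.3, and Car4, anchored at the cell surface, from 688.5 and 588.4 to 159.1 and 182.0. Car12, which like Car14 spans the membrane, stood at 666.2 and 490.3 in PD and at 164.0 and 264.1 in PC, and neither Car12 nor Car14 passed (limma, Benjamini-Hochberg adjusted p = 0.13 and 1). Both had uneven libraries within each group.

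**Figure D5:**
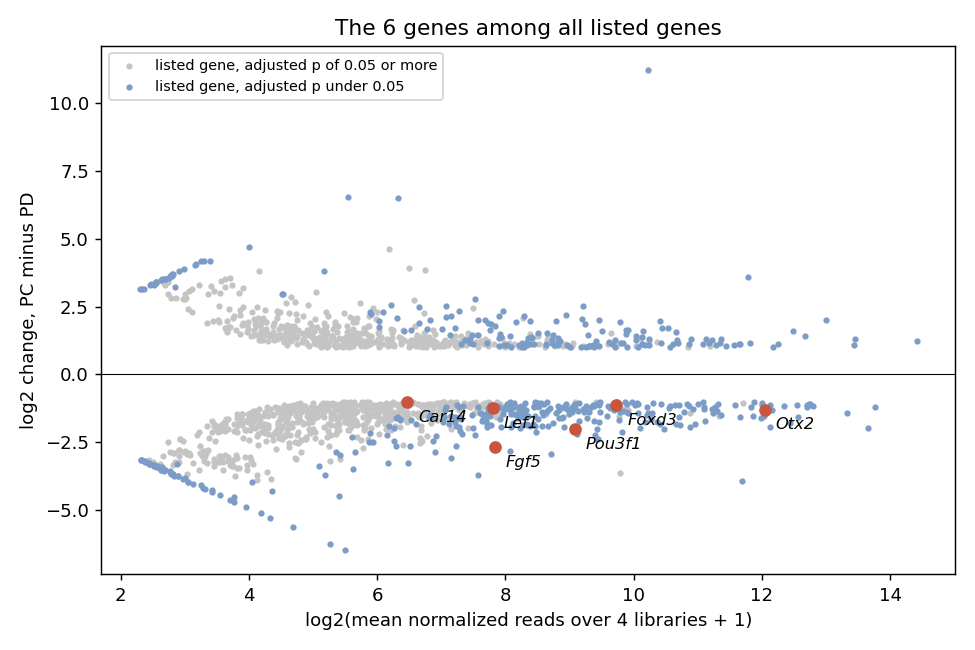
Each of the 1593 listed genes by its mean level (log2 of normalized reads plus 1) and its log2 change, PC minus PD; blue marks an adjusted p under 0.05 and red the 6 genes. Otx2 and Foxd3 lie at high levels near the empty band that the fold limit of the table leaves, and Fgf5, at -2.68, lies well below it.

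Of the 6 genes, Otx2, Pou3f1, Foxd3 and Lef1 carry the transcription factor annotation in the authors' deposited table. Among all 120 listed genes with it, 67 had lower and 53 higher values, 26 fell and 16 rose, and the median log2 change was -1.11. Over all listed genes 61.5% had lower values, 19.8% were called lower and 11.2% were called higher, and the median was -1.17. Pou3f1, Foxd3 and Lef1 ranked 13, 10 and 26 by level in PD among them.

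The listed genes most like each of the 6 were sought among 597 genes with a mean of at least 100 normalized reads. Likeness was the Euclidean distance of log2 values over the 4 libraries, after the PD mean of each gene was subtracted. Nearest to Otx2 were Ramp3, a receptor activity-modifying protein gene, at 0.027, the receptor kinase gene Tek at 0.033 and 9530027J09Rik at 0.040. Nearest to Foxd3 were the glutathione peroxidase gene Gpx3 at 0.020, Car2 at 0.027 and the laminin gene Lamb3 at 0.067. Nearest to Pou3f1 were the phospholipase gene Plcd4 at 0.126, Fgf15 at 0.139 and Gm11839 at 0.175. Fgf5 had no such close neighbour: its nearest were the caspase gene Casp14 at 0.390, the leukotriene receptor gene Ltb4r2 at 0.438 and the protocadherin gene Pcdh8 at 0.455. For Lef1 they included D630023F18Rik at 0.091 and Gm21761 at 0.176, and for Car14 the steroid dehydrogenase gene Hsd17b1 at 0.505, 1810041L15Rik at 0.541 and Ccdc3 at 0.649. With 4 libraries in 2 groups, such distances describe the size of a change and the gaps between libraries, and no more.

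Listed markers of other cell types differed in value as well, which was a condition for being listed. Gata6, Foxa1, Neurod1, Evx1, Tek and Myh7 passed the threshold, while Sox17, Six3, Kdr, Gata3, Col3a1, Myh6 and Tnnt2 did not. Of 10 markers of extra-embryonic endoderm 3 were listed, Gata6, Foxa1 and Sox17, and their summed level was between 397.8 and 419.9 normalized reads in PD and between 895.6 and 1063.5 in PC. Of 14 neural markers Neurod1 and Six3 were listed, with sums of 1064.7 and 1152.9 in PD and of 294.1 and 315.2 in PC. These went opposite ways: the log2 change was -2.01 for Neurod1 and 1.45 for Six3, which stood at 10.7 and 10.1 in PD and at 19.9 and 45.2 in PC. Of 10 mesoderm markers Evx1 and Kdr were listed, with sums of 88.2 and 113.6 in PD and of 36.5 and 20.2 in PC, and Evx1 was at 0 reads in both PC libraries. The trophoblast marker Gata3, 1 of 8, stood at 380.1 and 384.0 in PD and at 194.7 and 133.2 in PC, and the fibroblast marker Col3a1, 1 of 8, at 89.2 and 113.6 and at 38.9 and 48.8. Muscle markers, 3 of 6 listed, summed to 811.6 and 626.0 in PD and to 304.1 and 293.8 in PC, and endothelial markers, 2 of 6, to 3342.5 and 3526.6 and to 1498.7 and 1334.7. Most of the endothelial sum was Tek, at 3279.5 and 3446.0 in PD and at 1462.3 and 1314.5 in PC, and Kdr is in both the mesoderm and the endothelial sum. The part of these markers in the lower levels of the 6 genes was not tested, and in bulk RNA fewer cells of a type and less RNA per cell cannot be told apart.

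Exons of 5 of the 6 genes overlap those of other annotated genes in GENCODE M21, and the sources used here do not say whether the authors' counting used strand. Otx2 shares 154 bases with the opposite-strand Otx2os1 and 168 with Gm49154, Pou3f1 330 with the antisense Gm2164, Lef1 1208 with the antisense Gm43352, and Foxd3 89 with a small RNA gene. Car14 shares 445 bases with Aph1a, a protein-coding gene of the opposite strand, so reads of Aph1a could enter its count. Fgf5 shares none.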

How the data were processed

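The labels give 2 libraries per group, placed by title. The deposited table has 1 row per listed gene; per the file headers it holds log2 values per library with the p-value and false discovery rate of each gene in the authors' test. Undoing the log and subtracting 1 left whole multiples of 1 step per library for 100% of values (tolerance 0.001 reads), which gave reads and size factors of 1.0313, 1.0911, 1.207 and 0.8406 for PD replicates 1 and 2 and PC replicates 1 and 2. Bowtie 0.12.2 and the build mm9 appear in the submitters' processing notes, without a role. What counted the reads, on which annotation, and which test was used are not given in the sources used. Libraries of a group were not copies: chi-square per degree of freedom was 7.12 in PD and 6.81 in PC.

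Listed genes with a mean of at least 1 normalized read, which all 1593 and so all 6 members had, were fitted on the log2(value + 1) scale with limma 3.58.1 (R 4.3.3) and a trended prior. Benjamini-Hochberg adjustment was made over the 31432 genes tested by the authors, unlisted genes being taken to have larger p-values, and an adjusted p under 0.05 was called. In the authors' test, 19.7% of the genes with a p up to the largest listed one were listed. Many unlisted genes thus had p-values in the same range, and the adjusted p-values given here can be too large. The spread came from selected genes, which can make it too small. The naming rule takes the 6 members, all listed genes of 9 lists of related genes and the 3 nearest genes to each member; listed pluripotency and cell type markers are named from marker lists outside it. Some genes the rule names are not reported here. Members, lists and tests were chosen with earlier results of these data known. The fit was tested on simulated data. Alternatives were pseudocounts of 0.1 and 5, a mean of at least 10, no filter, no trend, no size factors, voom, a replicate block and leaving out each library.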

Additional observations from a re-analysis of the deposited data

How the results depend on the processing

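All 6 genes kept a lower value in PC under every alternative run, and the 46 genes of the naming rule kept their direction; the selection of the table nearly fixes this. Of the 6 genes 4 were called with pseudocounts of 0.1 and 5, with a mean of at least 10 and with no filter, 5 with voom (Lef1 added), and 0 without a trend or without size factors (5 and 6 had an unadjusted p under 0.05 in limma). With each library left out in turn 0 to 0 of the 6 were called. Over all listed genes limma called 495, but 1 without a trend, 64 without size factors and 33 to 61 with a library left out, where the lone library of a group is taken to vary as the paired ones do. Of the 46 genes of that rule 23 were called, and 0 in each of these settings, with 35 to 46 at an unadjusted p under 0.05. The cause of these losses was not tested. With the replicate number as a block, 1176 listed genes and all 6 of the genes studied were called; deviations of same-numbered libraries correlated at -0.002 over 1452 genes, so the number gives no sign of a pairing. Full depth is unknown, and Fgf5 and Car14 rest on 41 to 91 reads in PC.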
